A study of Mus musculus with 4 samples.

Results

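The genes described here are the G2/M and mitosis genes, a list of 53 symbols for proteins that act from the end of DNA replication to the separation of the daughter cells. All 53 were among the 31053 genes of the count matrices. The symbols were given as a list, and the rule that sets the members uses no measured value. The list was, however, drawn up with earlier results of these data known. Transcripts were counted in thymic invariant natural killer T (iNKT) cells, which are T cells with a nearly fixed receptor for lipids on CD1d, from 2 C57BL/6 mice (wildtype) and 2 Hivep3-/- mice that had been backcrossed to C57BL/6. The gene Hivep3 encodes a transcription factor with zinc fingers, and the question was what its loss does to iNKT cell development. All mice were untreated and 8 to 9 weeks old, and each library came from 1 mouse. Cells that bound a CD1d tetramer carrying the lipid PBS57 were enriched on magnetic beads and sorted as equal parts of CD44low and CD44high cells, so that the sort set part of every share of cells below. Single cells were captured in droplets with 5′ chemistry, and each count is a count of unique molecular identifiers (UMIs).

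A dividing cell copies its DNA in S phase and then makes, for a short time, the proteins of mitosis. Cyclins A and B with the kinase Cdk1 drive the cell into mitosis, kinetochores and motor proteins place the chromosomes on the spindle, and the anaphase-promoting complex then tags cyclin B and other proteins for destruction. Most of these genes are held silent in resting cells by the DREAM complex and are switched on by B-Myb and FoxM1, which act through promoter elements known as CHR and CCAAT boxes. In the thymus iNKT cells divide soon after selection, and mature iNKT1 cells rarely do.

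The 4 libraries held 31381738 to 48291764 UMIs in 4243 to 8374 barcodes, of which 3651 to 7231 passed the cell filters of the study. The libraries shared 26 to 58 barcodes in pairs. The kept C57BL/6 cells were shallower, with medians of 4596 and 5268 UMIs in replicates 1 and 2, against 6833 and 6491 in Hivep3-/-. C57BL/6 replicate 1 held 17330 UMIs of Xist and none of 4 Y-linked genes, whereas the other libraries held 3 to 25 UMIs of Xist and 4107 to 5590 of Y-linked genes. The sex of the mice thus differed within C57BL/6, although the study describes these mice as female, and its part in the results was not tested. Hivep3 itself stood at 39.7 and 37.8 CPM (UMIs of a gene per 1000000 UMIs, scaled between libraries) in C57BL/6 and at 96.1 and 67.1 CPM in Hivep3-/- (log2 difference 1.08, SE 0.19, adjusted p 0.0743, edgeR's quasi-likelihood test, Benjamini-Hochberg adjusted). The sources used here do not say what was deleted, so this count does not check the genotype.

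Cells were grouped by clustering without the 53 genes, without other listed cell cycle and histone genes and without genes that went along with them from cell to cell (1448 genes in all), so that the list did not define the groups. Clusters were then named by markers. Stage 0-like cells, named by markers of the earliest precursors, numbered 489 and 154 in the C57BL/6 libraries (replicate 1, then 2), and 635 and 756 in those of Hivep3-/-. iNKT2-like cells numbered 2735, 899, 432 and 499, iNKT17-like cells 220, 132, 131 and 129, and iNKT1-like cells 3502, 2429, 3162 and 2388, in the same order. Zbtb16 was detected in 83.0% of iNKT2-like cells and Nkg7 in 98.3% of iNKT1-like cells. Cd24a, which marks stage 0, was detected in 16.96% of stage 0-like cells and in at most 1.07% of the cells of the other named classes. Stage 0-like cells joined a Cd24a-led cluster (290, 98, 348 and 372 cells, same order) and an Igfbp4-led cluster (199, 56, 287 and 384). Whether the latter cells were at stage 0 was not tested. The iNKT2-like cells came from an Il13-led and an Il17rb-led cluster, and the former held most of them in C57BL/6 and the latter in Hivep3-/-. Ccnb2, Birc5 and Ube2c were still among the 10 leading genes of the Il13-led cluster.

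Promoters are shown first, because these genes are known to share short elements next to their start sites. RefSeq promoter windows (GRCm38.p6, the assembly of mm10), which run from 250 bases before to 50 bases after each start, were found for 46 of the 53 genes. The motif TTTGAA or its reverse complement TTCAAA, the core of a CHR element, was present in 32 of the 46 (69.6%), against 5466 of all 27025 genes with an entry (20.2%). CCAAT or ATTGG was present in 36 (78.3%), against 41.1% of all genes. Both were present in 26 (56.5%), against 7.97%. The motifs overlapped each other in 1 of the 51 windows of these genes. Of 50 other mitosis genes outside the list 60% held TTTGAA or TTCAAA, whereas only 18.2% of 33 S phase genes did, although 69.7% of these held CCAAT or ATTGG. The 8 stretches below end at the start site or where an annotated exon begins, and their genes are those on which the results turn, together with Kif11, Top2a and Cdc20 as a motor, a chromosome and an anaphase gene. Bases are written 5′ to 3′ on the strand of the gene, and the capitals mark the motifs.
Ccnb2 (chr9:70421555-70421704, minus strand): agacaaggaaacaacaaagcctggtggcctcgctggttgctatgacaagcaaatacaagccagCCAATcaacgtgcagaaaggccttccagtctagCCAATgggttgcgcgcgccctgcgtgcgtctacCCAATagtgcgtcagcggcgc
Cdk1 (chr10:69352939-69353062, minus strand): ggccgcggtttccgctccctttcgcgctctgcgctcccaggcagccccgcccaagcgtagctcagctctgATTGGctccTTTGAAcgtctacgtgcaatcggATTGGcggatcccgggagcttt
Ckap2l (chr2:129297213-129297362, minus strand): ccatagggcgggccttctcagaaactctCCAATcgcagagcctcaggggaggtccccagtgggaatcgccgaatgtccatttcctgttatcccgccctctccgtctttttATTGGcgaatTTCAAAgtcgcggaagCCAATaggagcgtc
Aurka (chr2:172370571-172370680, minus strand): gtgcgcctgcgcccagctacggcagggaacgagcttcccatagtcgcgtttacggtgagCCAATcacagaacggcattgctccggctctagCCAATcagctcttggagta
Hmgb2 (chr8:57511693-57511842, plus strand): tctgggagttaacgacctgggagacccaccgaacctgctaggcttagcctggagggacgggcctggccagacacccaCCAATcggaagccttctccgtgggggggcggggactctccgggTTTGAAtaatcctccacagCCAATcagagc
Top2a (chr11:99024190-99024339, minus strand): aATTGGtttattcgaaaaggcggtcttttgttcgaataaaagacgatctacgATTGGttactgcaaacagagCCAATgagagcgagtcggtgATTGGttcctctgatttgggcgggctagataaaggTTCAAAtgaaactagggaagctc
Cdc20 (chr4:118437353-118437493, minus strand): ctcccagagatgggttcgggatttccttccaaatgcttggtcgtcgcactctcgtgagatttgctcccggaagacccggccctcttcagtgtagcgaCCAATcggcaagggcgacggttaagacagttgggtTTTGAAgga
Kif11 (chr19:37376232-37376381, plus strand): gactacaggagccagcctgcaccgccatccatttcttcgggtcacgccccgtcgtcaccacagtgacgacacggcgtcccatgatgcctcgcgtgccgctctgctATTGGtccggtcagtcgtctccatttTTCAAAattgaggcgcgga

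In Ccnb2 the 3 CCAAT boxes lay 21, 54 and 87 bases before the start, and in Cdk1 a TTTGAA lay 71 bases before it between ATTGG at 48 and 80 bases. The Aurka stretch held CCAAT at 19 and 51 bases and no TTTGAA or TTCAAA, nor did the stretch of Ccnb2 hold one. The match is one of letters, and binding was not measured. Among the 46 genes, those with TTTGAA or TTCAAA had a median fold of 44.7 between dividing and other cells (explained next), and the 14 without had 90.2. Windows for Tpx2, Cdc25c, Aurkb, Smc4, Cdca2, Dlgap5 and Ccna2 were not in the table used here.

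How far each gene was restricted to dividing cells was measured with genes outside the list. Every cell was thinned at random to 2000 UMIs, and cells with at least 5 UMIs of 62 other mitosis genes (such as Plk1, Bub1b and Mad2l1) were called dividing, with 293, 135, 85 and 173 cells in C57BL/6 replicates 1 and 2 and Hivep3-/- replicates 1 and 2. Cells with none of these UMIs numbered 3611, 1924, 2337 and 2194. The 53 genes together made up 105, 122, 102 and 117 of every 10000 UMIs in dividing cells, and 11.2, 10.7, 9.78 and 9.53 in cells with none. All 4 libraries thus showed a similar step, and neither genotype stood apart in dividing cells chosen this way. The median fold was 50.6 over the 52 genes for which it could be formed, and the range went from 2.51 to 581. Both sets of cells were chosen by genes that go along with these, so the folds describe how specific each gene is and carry no test.

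By role, the genes of mitotic kinases and their partners were the most restricted to dividing cells (7 genes, median fold 124). Bub1, a kinase of the spindle checkpoint, was higher by a fold of 376, Ttk, which starts that checkpoint, by 365, and Aurka, which builds the spindle poles, by 54.5. Among CDK and cyclin genes (8, median 46.8), cyclin A2 (Ccna2) had the largest fold of the list at 581, followed by cyclin B1 (Ccnb1) at 236, Cdk1 at 94.8 and cyclin B2 (Ccnb2) at 46.8, while the small CDK subunits Cks1b and Cks2 had 13.6 and 7.67. Spindle and motor genes (15, median 39.2) ran from Hmmr at 475, Nusap1 at 470.1 and the motor Kif11 at 213 to Ckap5 at 3.75 and Rangap1 at 2.71. The 4 genes of ubiquitin ligases had a median of 102, with Ube2c, the conjugating enzyme of the anaphase-promoting complex, at 171 and its activator Cdc20 at 46.2. Kinetochore and centromere genes (6, median 55.7) ran from Nuf2 at 203 to Hjurp, the chaperone that loads the centromeric histone, at 4.28. The cytokinesis genes Ect2, Kif23 and Anln had folds of 35.8, 43.2 and 186.

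Genes of chromosomes and the nuclear envelope were the least restricted (10 genes, median fold 8.91). Mki67, which coats mitotic chromosomes, had a fold of 119 and Top2a, the topoisomerase that untangles sister DNA, 69.5. Hmgb2, a chromatin protein that bends DNA, had 9.74, the condensin subunit Smc4 8.09 and the lamin B receptor Lbr 2.51. In all, 8 genes had folds under 5 (Lbr, G2e3, Rangap1, Ckap5, Anp32e, Hjurp, Tubb4b and Cbx5). The UMIs of the list were unevenly spread: Hmgb2 gave 24.9% of them, the tubulin Tubb4b 10.6% and the histone chaperone Anp32e 8.27%, whereas G2e3 gave 0.332%. The 5 largest genes gave 64.7% to 69.1% of the list's UMIs in cells with none of the other mitosis genes, against 40.7% to 43.9% in dividing cells. Hmgb2, Tubb4b, Anp32e and Lbr were among these 5 in every library's cells with none. Cdc25c, the phosphatase that activates Cdk1, had no fold because a library held none of it in resting cells. These shares compare 5′ UMI counts, which are not divided by length, and are not levels per length. Of the 53 genes, 13 overlap another annotated gene on the same strand and 18 one on the opposite strand, so that reads there could be assigned to the wrong gene.

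The genes of the list went 2 ways with the amount of S phase transcripts. Among cells with at least 3 UMIs of the other mitosis genes, those with at most 2 UMIs of 45 S phase genes were set against those with 5 or more. Cenpa, the centromeric histone, was higher in the cells with few S phase transcripts by 1.66 on the log2 scale (mean of 4 libraries, range 1.45 to 1.82), Ccnb2 by 1.30 (1.07 to 1.49) and Cdc20 by 1.21 (0.97 to 1.46). Cdc25c, Nek2 and Ccnb1 followed at 0.84, 0.77 and 0.74, and Ckap2 and Dlgap5 at 0.50 and 0.30, so that 8 genes were above 0 in every library. The opposite pattern was more common, with 32 genes below 0 in every library. Top2a was lowest at -2.83, followed by Aurkb at -2.39, Cbx5 at -1.89, Nusap1 at -1.84, Ndc80 at -1.80 and Cdk1 at -1.74. Another 12 genes, such as Ube2c at 0.34 and Tpx2 at -0.08, took both signs, and G2e3 had too few UMIs. Cyclin B2 and Cenpa thus stood higher in cells with few S phase transcripts, and Top2a and Cdk1 in cells with many. The former cells were shallower, with medians of 8177, 6544.5, 7899 and 7388 UMIs in the 4 libraries, against 13200.5, 15838, 11888 and 13708. The 53 genes also summed lower in them, at 68.9, 81.0, 39.4 and 67.6 per 10000 UMIs against 77.8, 100, 65.0 and 83.4. The part of this in the values below 0 was not tested.

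**Figure D1:**
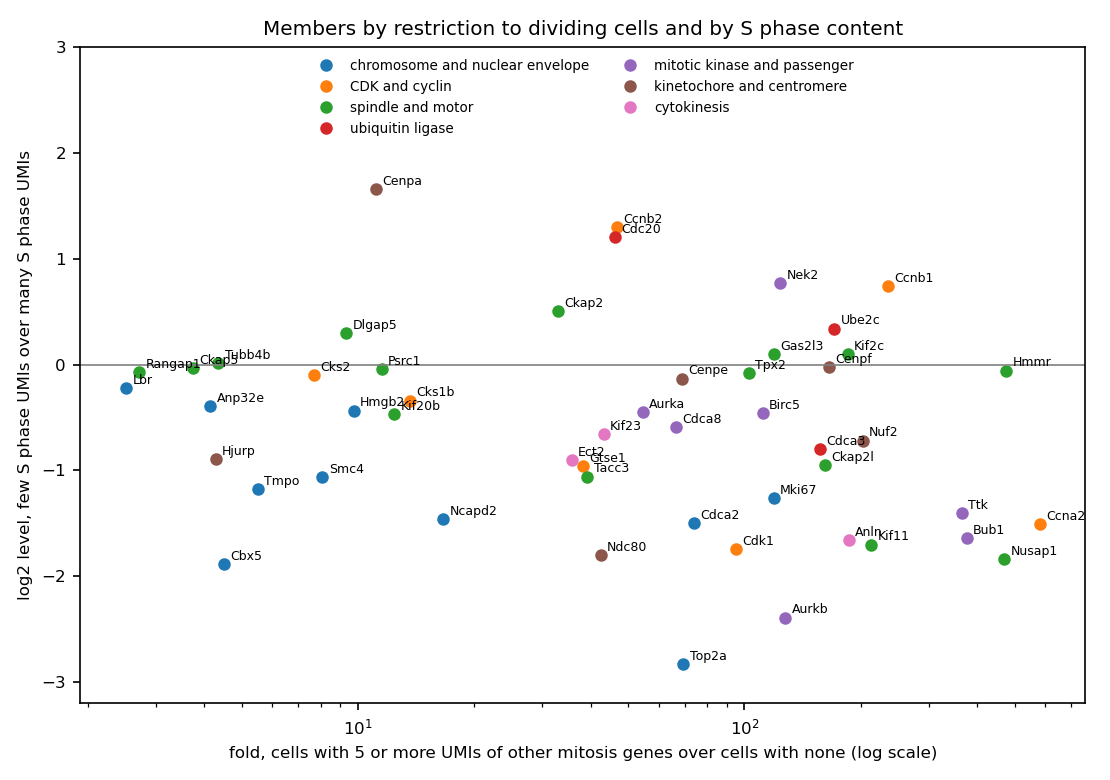
Each point is 1 of the G2/M and mitosis genes, coloured by role. The horizontal log axis gives the fold between dividing cells and cells with none of the other mitosis genes (mean of 4 libraries), and the vertical axis the log2 ratio of cells with few over cells with many S phase transcripts. Cenpa, Ccnb2 and Cdc20 stand at the top between folds of 11.1 and 46.8, Top2a stands lowest, and Lbr and Rangap1 lie at the left. G2e3 and Cdc25c lack 1 of the 2 values and are not drawn.

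Among the 4 named classes the summed level of the 53 genes was highest in iNKT2-like cells in C57BL/6 and in stage 0-like cells in Hivep3-/-. Cells of unnamed clusters had 24.01, 41.01, 19.6 and 30.6 per 10000 UMIs in the 4 libraries. It was 21.3 and 20.6 per 10000 UMIs in stage 0-like cells of C57BL/6 (replicate 1 first here and below) and 19.1 and 25.8 in those of Hivep3-/-. In iNKT2-like cells it was 24.0 and 28.3 in C57BL/6, against 10.7 and 16.6 in Hivep3-/-. iNKT17-like cells had 11.3, 11.3, 8.61 and 9.09, and iNKT1-like cells 10.3, 10.6, 10.6 and 9.61. The last 2 classes lay close to the 9.53 to 11.2 of resting cells. Within iNKT2-like cells nearly all of the excess lay in the Il13-led cluster, with 33.1, 41.3, 18.2 and 39.9, whereas the Il17rb-led cluster had 11.3, 11.4, 8.33 and 8.61. Within stage 0-like cells, a cluster led by Cd24a had 18.3, 16.03, 19.5 and 20.6, and one led by Igfbp4 had 25.9, 28.5, 18.7 and 30.8. Thinning to 2000 UMIs gave 24.0, 29.1, 11.1 and 16.2 in iNKT2-like cells and 22.2, 20.2, 18.8 and 26.5 in stage 0-like cells.

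**Figure D2:**
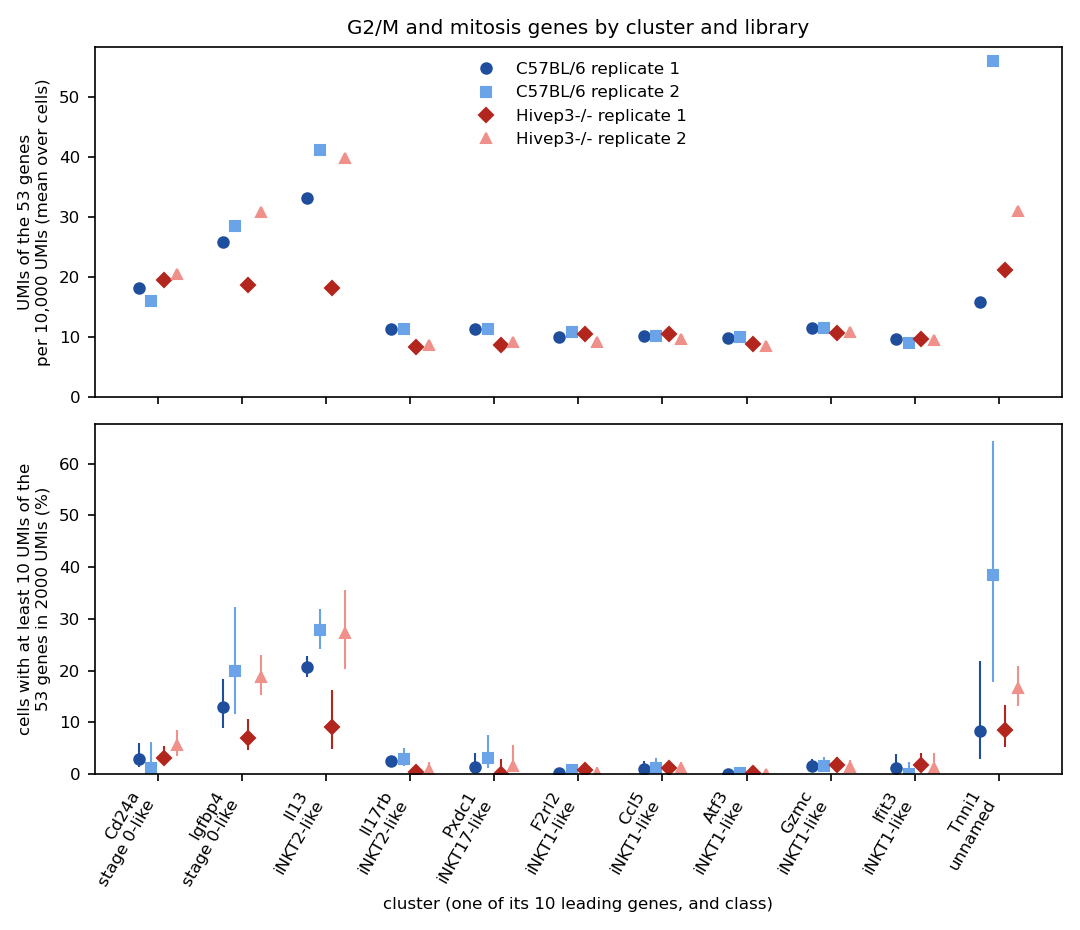
The 2 panels give, for each cluster and library, the summed level of the 53 genes per 10000 UMIs and the share of cells with at least 10 of their UMIs among 2000 (bars are 95% Wilson intervals, counting error only). The Il13-led cluster has 33.1 and 41.3 in C57BL/6 and 18.2 and 39.9 in Hivep3-/-, and the Il17rb-led cluster has 8.33 to 11.4. The 4 clusters of 84 to 137 cells are not drawn.

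The sum came from few cells. After thinning to 2000 UMIs, 6.598% and 5.45% of C57BL/6 cells in replicates 1 and 2 held at least 10 UMIs of the list, against 2.19% and 5.13% of Hivep3-/- cells (95% Wilson interval 6.03 to 7.22 in the first and 1.80 to 2.66 in the third). Such cells are called high cells below. They were 13.2% and 17.1% of iNKT2-like cells in C57BL/6 and 2.34% and 7.63% in Hivep3-/-. They were 7.65% and 8.33% of stage 0-like cells in C57BL/6 and 4.86% and 12.5% in Hivep3-/-. Only 0.559% to 1.28% of iNKT1-like cells were high, and this serves as the level in cells that rarely divide. In iNKT17-like cells the shares were 1.40%, 3.05%, 0% and 1.56%, where 0 of 130 cells allows a share of up to 2.31% by a limit of 3 cells, and of up to 2.87% by the Wilson interval. High cells were deep ones, with a median of 12342, 15358, 11723 and 14007 UMIs before thinning against 4655, 5211, 6841 and 6389 in the others. The class is a range cut from a sum, and 229, 62, 55 and 74 cells held 8 to 11 UMIs, just on either side. Cells under 2000 UMIs (502, 91, 82 and 75) were left out, and without thinning, with at least 50 per 10000 UMIs, the shares averaged 5.46% ± 0.709 in C57BL/6 and 3.46% ± 2.03 in Hivep3-/- (SD, n = 2).

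**Figure D3:**
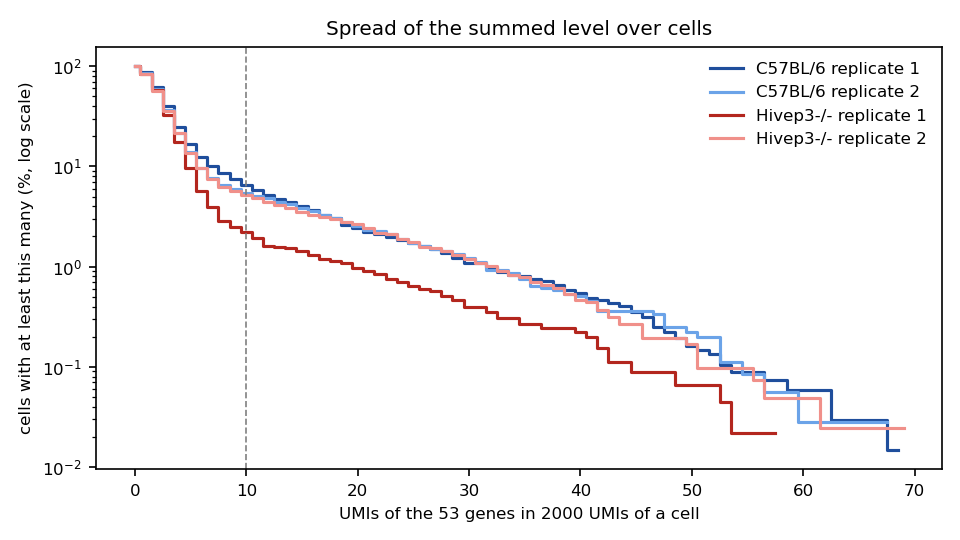
The share of cells (log axis, percent) with at least a given number of UMIs of the 53 genes among 2000 is drawn for each library. The dashed line marks 10 UMIs, where Hivep3-/- replicate 1 lies at 2.19% and the other 3 libraries between 5.13% and 6.598%.

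The high cells of the genotypes belonged to different classes. In C57BL/6, 79.3% ± 1.29 of high cells were iNKT2-like (73.3% ± 0.844 in the Il13-led cluster alone), 6.58% ± 0.563 stage 0-like and 6.92% ± 4.06 iNKT1-like (SD, n = 2). In Hivep3-/-, 14.1% ± 5.65 were iNKT2-like, 36.8% ± 9.21 stage 0-like, 24.5% ± 22.5 iNKT1-like and 22.1% ± 8.44 in an unnamed cluster led by Tnni1. Neither Hivep3-/- library overlapped a C57BL/6 library in the iNKT2-like and stage 0-like shares. Most stage 0-like high cells lay in the Igfbp4-led cluster, with 5.65% ± 0.0279 of high cells in C57BL/6 and 27.2% ± 9.96 in Hivep3-/-. The Cd24a-led cluster held 0.933% ± 0.591 and 9.57% ± 0.745 of high cells. The sizes of the classes moved in the same direction: the Il13-led cluster held 22.03% and 14.0% of C57BL/6 cells and 2.24% and 3.07% of Hivep3-/- cells, and stage 0-like cells were 7.04% and 4.26% of named cells in C57BL/6 and 14.6% and 20.04% in Hivep3-/-. With class shares set in every library to the C57BL/6 mean, the summed level was 15.4 and 16.9 in C57BL/6 and 11.03 and 12.8 in Hivep3-/-. The means were then 16.1 ± 1.08 against 11.9 ± 1.23, and with the libraries' own shares 16 ± 0.735 against 12.8 ± 1.40. Both pairs of means cover the 4 named classes only. They leave out the unnamed clusters, which held 5.07% ± 2.07 of high cells in C57BL/6 and 22.6% ± 7.72 in Hivep3-/-. Over all kept cells the summed level was 16.3 ± 0.928 against 13.8 ± 2.20.

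Over all kept cells, those with S phase but not G2/M transcripts did not follow the same pattern. Cells with at least 10 UMIs of the S phase genes and fewer than 10 of the 53 genes were 4.83% and 3.06% in C57BL/6 and 3.06% and 3.91% in Hivep3-/-. Cells with the reverse, G2/M without S phase transcripts, were 4.07% and 3.40% in C57BL/6 and 0.930% and 2.10% in Hivep3-/-. The latter shares did not overlap between genotypes, while the former did. The ratio of the second to the first kind was 0.843 and 1.11 in C57BL/6 and 0.304 and 0.538 in Hivep3-/-. In stage 0-like cells that ratio was 0.424 and 0.600 against 0.149 and 0.358, and in iNKT2-like cells 0.891 and 1.29 against 0.167 and 0.773. In the iNKT2-like cells of Hivep3-/- replicate 1 the ratio rests on 4 and 24 cells. Within classes the genotypes did not overlap in the cells with S phase transcripts only. These were 9.53% and 8.67% of iNKT2-like cells in C57BL/6 and 5.62% and 4.42% in Hivep3-/-. Of stage 0-like cells they were 8.15% and 6.94% in C57BL/6 and 10.9% and 11.2% in Hivep3-/-. In iNKT1-like and iNKT17-like cells they were at most 2.34% in any library.

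Members were next compared across the maturing classes, in 1 model of UMI sums per library and class with library as a block (51 genes tested, Psrc1 and Gas2l3 being too low). All contrasts share the same libraries. From iNKT2-like to iNKT1-like cells the list fell nearly as a whole. Of the 51 genes 46 were lower in iNKT1-like cells and none higher, against 28.8% lower and 29.8% higher of all 10601 genes tested (58.6% called), and the median difference was -1.95 on the log2 scale (0.03 over all genes). In a sum over cells, fewer dividing cells and less RNA of a gene in each cell cannot be told apart.

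Cyclin B1 stood at 17.8, 31.3, 1.52 and 12.3 CPM in iNKT2-like cells of C57BL/6 replicates 1 and 2 and Hivep3-/- replicates 1 and 2, and at 0.881, 2.13, 1.04 and 0.694 CPM in iNKT1-like cells. It fell by 3.42 (SE 0.41, adjusted p 3.41e-06, edgeR's quasi-likelihood test, Benjamini-Hochberg adjusted, as for the other genes of this paragraph). Every library but Hivep3-/- replicate 1 had over 10 CPM before and about 2 or less after. Cyclin B2 fell by 2.96 (SE 0.40, adjusted p 1.15e-05), Ube2c by 2.66, Cks1b by 2.57 (SE 0.21, adjusted p 3.65e-08) and Cdk1 by 2.43. The microtubule-depolymerising motor Kif2c fell by 2.68, the cytokinesis scaffold Anln by 2.49, Ttk by 2.46 and Cdc25c by 2.45. Cdc20 and the inhibitor of cell death and chromosomal passenger Birc5 fell by 2.42 and 2.35, Bub1 by 2.29, the kinetochore motor Cenpe by 2.12, Aurka by 2.10 and the spindle assembly factor Tpx2 by 2.08. Aurkb and Ccna2 each fell by 2.03, Kif11 by 1.98, Cenpa by 1.97, Top2a by 1.95, Nusap1 by 1.94, the kinetochore protein Cenpf by 1.84 and Mki67 by 1.60. Cks2, Smc4 and Hmgb2 changed least among these, by -0.84, -0.76 and -0.71. The 5 genes not called were Ckap5 (-0.29), Rangap1 (-0.08), Tubb4b (-0.06), Lbr (-0.01) and G2e3 (0.24), all among the 8 that were least restricted to dividing cells. With cell cycle genes kept in the clustering 34 of 44 genes fell, with a median of -0.86, and Nusap1 turned to 0.62.

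From iNKT2-like to iNKT17-like cells 43 of the 51 genes fell and none rose, against 16.5% lower and 15.9% higher of all genes (32.4% called), with a median of -2.25. Cdk1 stood at 41.0, 50.8, 7.79 and 30.6 CPM in iNKT2-like cells and at 4.01, 3.61, 0.892 and 5.54 CPM in iNKT17-like cells of the 4 libraries in the same order. It fell by 3.25 (SE 0.54, adjusted p 0.000226, edgeR's quasi-likelihood test, Benjamini-Hochberg adjusted), and Top2a by 3.14 (SE 0.49, adjusted p 0.000132). Larger falls with wider errors were those of Nusap1 (-4.22, SE 0.96), Cenpe (-4.04, SE 0.94), Ttk (-3.95, SE 1.11), Kif11 (-3.56, SE 0.81) and Nuf2 (-3.32, SE 0.73), all at under 3 CPM in every iNKT17-like sum. Ube2c fell by 3.13, Birc5 by 2.96, Bub1 by 2.95, Ccna2 by 2.86, Ccnb1 and Aurka by 2.59, Cenpf by 2.47, Aurkb by 2.39, Tpx2 by 2.32, Mki67 by 2.25, Ccnb2 by 2.16, Cks1b by 2.01, Cks2 by 1.64, Cdc20 by 1.58, Hmgb2 by 1.03, Smc4 by 1.02 and Cenpa by 0.99. Ect2, Cdc25c, Anln, Dlgap5, Tubb4b, Rangap1, Ckap5 and G2e3 were not called. Without C57BL/6 replicate 2 the count was 28, and without C57BL/6 replicate 1 it was 29.

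Between stage 0-like and iNKT2-like cells the list was split. Of the 51 genes 1 was higher and 7 were lower in iNKT2-like cells, against 19.4% and 17.1% of all genes (36.4% called in all), with a median of -0.11 (-0.01 over all genes). Dlgap5, a spindle protein, rose by 0.69 (SE 0.24, adjusted p 0.0356, edgeR's quasi-likelihood test, Benjamini-Hochberg adjusted). Hjurp fell by 0.61 (adjusted p 0.000238, same test), the condensin subunit Ncapd2 by 0.59, the heterochromatin protein Cbx5 by 0.56, Smc4 by 0.53, Tubb4b by 0.38, Anp32e by 0.37 and Rangap1 by 0.34. Except for Ncapd2 and Smc4, each of the 7 that fell had a fold under 5 between dividing and other cells. The genes of the G2/M switch were not called: Ccnb2 differed by 0.71 (SE 0.38), Cenpa by 0.51 (SE 0.22), Ccnb1 by 0.48, Hmgb2 by 0.45, Ube2c by 0.35, Birc5 by 0.29, Ccna2 by 0.25, Bub1 by 0.13, Nusap1 by 0.10, Cdc20 by 0.08, Aurkb by 0.07 and Mki67 by 0.02, and Kif11 by -0.37, Cks1b by -0.26, Aurka by -0.25, Tpx2 by -0.17, Top2a by -0.15, Cenpf by -0.12, Cenpe by -0.08, Cks2 by -0.06 and Cdk1 by -0.04. The cell group used for stage 0 decided this contrast. With the Cd24a-led cluster alone (chosen after seeing the data), 14 of 48 genes were higher in iNKT2-like cells and 6 lower, with a median of 0.89. With cell cycle genes kept in the clustering, 23 of 44 were higher and 5 lower, with a median of 1.19. Without Hivep3-/- replicate 2, 1 gene was higher and 2 were lower.

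From stage 0-like to iNKT1-like cells 47 of the 51 genes fell and none rose, against 31.7% lower and 32.2% higher of all genes (63.9% called), with a median of -1.90. Ccnb1 fell by 2.95, Kif2c by 2.90, the spindle protein Ckap2 by 2.87, Cks1b by 2.83 (SE 0.21, adjusted p 6.4e-09, edgeR's quasi-likelihood test, Benjamini-Hochberg adjusted), Cdc25c by 2.77, Anln by 2.71, Ttk by 2.57 and Cdk1 by 2.47. Kif11 and Aurka fell by 2.35, Cdc20 by 2.34, Ube2c by 2.31, Tpx2 by 2.26, Ccnb2 by 2.25, Cenpe by 2.20, Bub1 by 2.16, Top2a by 2.10, Birc5 by 2.05, Aurkb by 1.97, Cenpf by 1.96, Nusap1 by 1.84, Ccna2 by 1.77, Mki67 by 1.58, Cenpa by 1.46, Smc4 by 1.29 and Cks2 by 0.90. Hmgb2, with 459, 572, 297 and 596 CPM in stage 0-like cells against 319.5, 423, 265 and 292 in iNKT1-like cells, was not called (-0.26), nor were Lbr, Dlgap5 and G2e3. With the Cd24a-led cluster alone as stage 0, 20 of 48 genes fell, with a median of -0.78. With cell cycle genes kept in the clustering, 12 of 44 genes rose and 14 fell, with a median of 0.05, and genes such as Ccnb2 (3.64) and Ccna2 (2.55) turned in direction.

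**Figure D4:**
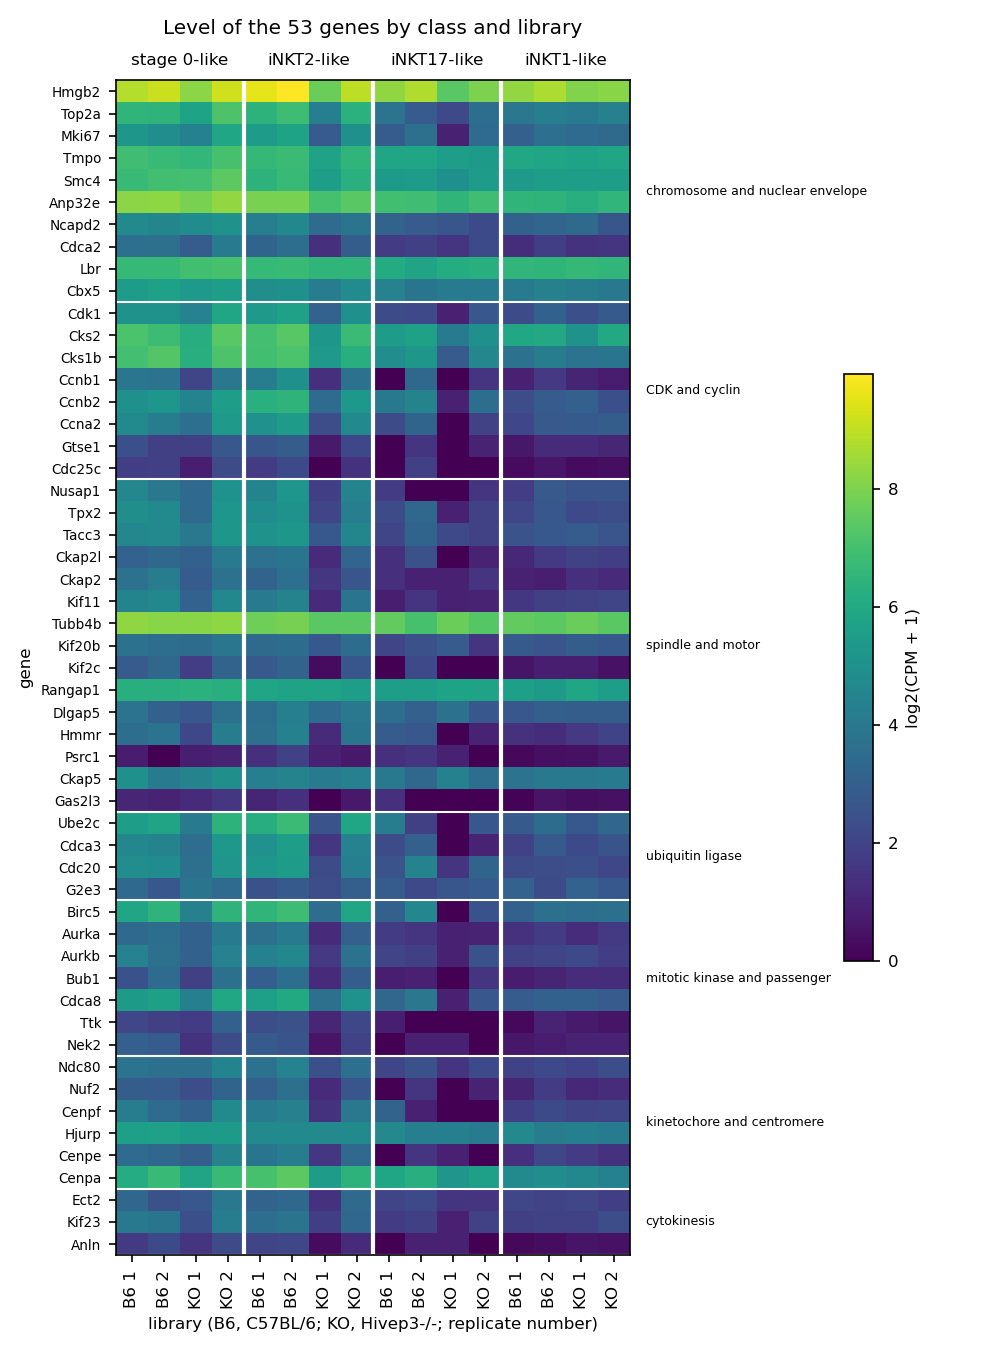
Levels of the 53 genes, as log2 of CPM plus 1, are drawn for 4 classes and, within each, the 2 C57BL/6 (B6) and 2 Hivep3-/- (KO) libraries. Most rows are dark in both iNKT17-like and iNKT1-like cells and pale in stage 0-like and C57BL/6 iNKT2-like cells, and the column of Hivep3-/- replicate 1 is darkest among the iNKT2-like columns for 51 of 53 genes, while Tubb4b, Lbr and Rangap1 vary little.

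Over all kept cells no member was called between genotypes by edgeR's quasi-likelihood test, against 0.765% of 12291 genes called in either direction. The unadjusted p was under 0.05 for 8 genes, DESeq2 called 3, and edgeR without the filter on low counts called 20. The differences had 1 direction, with 49 of 53 below 0 and a median of -0.65, against 0.03 over all genes. Hivep3-/- replicate 1 was the lowest of the 4 libraries for 48 of 53 genes. In 29 genes both Hivep3-/- libraries lay below both C57BL/6 libraries, as did 20.3% of all 12323 genes with at least 10 UMIs in 2 libraries, and in 2 both lay above (23.6% of those genes).

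Cyclin B2 stood at 52.98 and 45.2 CPM in the C57BL/6 libraries and at 13.7 and 28.8 CPM in those of Hivep3-/-, with no overlap (log2 difference -1.21, SE 0.33, adjusted p 0.196, edgeR's quasi-likelihood test, Benjamini-Hochberg adjusted, as for the next values). Cyclin B1 stood at 12.9, 16.3, 1.80 and 7.91 CPM (-1.59, SE 0.59, adjusted p 0.358). Cdc20 stood at 26.4, 24.5, 6.91 and 17.9 CPM (-1.04, SE 0.40, adjusted p 0.376). For each of these 3 genes of entry into and exit from mitosis the Hivep3-/- libraries were both below C57BL/6, and replicate 1 far more so than replicate 2. Cenpa stood at 96.2, 101, 37.0 and 62.5 CPM (-0.99, SE 0.24, adjusted p 0.156), and Hmgb2 at 621, 691, 277 and 440.5 CPM (-0.87, SE 0.22, adjusted p 0.168). Cks1b stood at 87.7, 79.0, 30.1 and 63.7 CPM (-0.83, SE 0.32). In these 3 too both Hivep3-/- libraries lay below both C57BL/6 libraries, with replicate 1 the lowest, and Cenpa had the lowest adjusted p of the list.

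Other genes were close to C57BL/6 in Hivep3-/- replicate 2 and low only in replicate 1. Cdk1 stood at 29.6, 28.1, 7.85 and 26.3 CPM (-0.76, SE 0.48), Top2a at 66.6, 64.5, 23.1 and 67.6 CPM (-0.53, SE 0.43) and Ccna2 at 23.3, 24.0, 6.83 and 21.4 CPM (-0.75, SE 0.46). In Top2a the 2 Hivep3-/- libraries were thus the lowest and the highest of the 4. Bub1 (5.12, 5.93, 1.72 and 5.98 CPM), Kif11 (12.5, 11.7, 3.83 and 11.2), Cenpf (13.1, 11.1, 4.05 and 12.1), Cenpe (10.2, 10.0, 3.39 and 9.40) and Nusap1 (16.5, 19.9, 5.69 and 17.5) showed this too, with differences of -0.53, -0.69, -0.59, -0.66 and -0.65. Ube2c (53.8, 57.02, 8.41 and 41.6 CPM), Birc5 (63.0, 63.5, 14.5 and 45.9), Aurkb (15.2, 13.2, 3.94 and 10.4), Aurka (8.87, 8.78, 2.72 and 7.56), Tpx2 (20.4, 19.3, 5.63 and 17.6) and Mki67 (32.6, 31.9, 11.8 and 28.4) lay between these patterns, with differences of -1.15, -1.07, -0.99, -0.78, -0.78 and -0.68. Cks2 had 106, 112, 41.9 and 99.1 CPM (-0.63) and Smc4 73.4, 76.7, 59.6 and 85.6 CPM (-0.05).

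The 4 genes above 0 were Ckap5 (0.00), Lbr (0.06), Rangap1 (0.13) and G2e3 (0.50), all among the 8 genes with folds under 5 between dividing and other cells. Replicate 1 of Hivep3-/- decided these values. Without Hivep3-/- replicate 2, so that replicate 1 alone stood for the genotype, 16 genes were called lower and the median was -1.48, and without Hivep3-/- replicate 1 none were and the median was -0.15. The test then assumes that the lone library varies like the others.

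Within iNKT2-like cells the differences were larger but again not called. None of 52 genes passed edgeR's quasi-likelihood test, against 0.779% of 10523 genes called, while 25 had an unadjusted p under 0.05, DESeq2 called 4, and edgeR without the filter on low counts called 40, all lower. With cell cycle genes kept in the clustering none of 51 was called, with a median of -0.13. The median was -1.26 (0.04 over all genes), 51 of 52 were below 0, and in 47 of 53 the genotypes did not overlap, with Hivep3-/- lower, as in 25% of all genes, and in none was it higher (26.3% of all genes). The medians by role ran from -0.78 for chromosome and nuclear envelope genes to -1.66 for ubiquitin ligase genes.

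Ccnb2 stood at 77.9 and 86.5 CPM in iNKT2-like cells of C57BL/6 and at 10.2 and 38.8 CPM in those of Hivep3-/- (-1.73, SE 0.50, adjusted p 0.176, edgeR's quasi-likelihood test, Benjamini-Hochberg adjusted, as for the other genes here). Ube2c stood at 73.2, 110.1, 4.76 and 56.8 CPM (-1.56, SE 0.82). Hmgb2 stood at 773, 986, 209 and 496 CPM (-1.32, SE 0.37, adjusted p 0.174). In each the genotypes did not overlap, and the 2 Hivep3-/- libraries were farther apart than the 2 of C57BL/6. The lowest adjusted p of the list was that of Anp32e, with 247, 244, 131 and 166 CPM (-0.73, SE 0.14, adjusted p 0.099), followed by Cks1b with 121, 139, 40.3 and 73.8 CPM (-1.18, SE 0.27, adjusted p 0.121) and Cenpa with 132, 173, 42.6 and 84.1 CPM (-1.26, SE 0.31, adjusted p 0.141). Anln had the largest difference (-2.00, SE 0.60) at 3.24, 3.38, 0.216 and 1.37 CPM.

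The Il13-led cluster held most C57BL/6 cells of the class and the Il17rb-led cluster most Hivep3-/- cells. Within the Il13-led cluster the median over 51 genes was -0.38, and none was called. Within the Il17rb-led cluster the median over 38 genes was -1.15 with 1 called lower (both chosen after seeing the data). Without Hivep3-/- replicate 2 the count over the whole class was 40, with a median of -2.68, and without Hivep3-/- replicate 1 it was 1, with a median of -0.58. In the Il13-led cluster the summed level of Hivep3-/- replicate 2 (39.9 per 10000 UMIs) lay between those of the C57BL/6 libraries (33.1 and 41.3).

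In stage 0-like cells the list had no common direction. None of 51 genes was called by edgeR (1 with an unadjusted p under 0.05, none by DESeq2), against 0.474% of 9918 genes, with 28 above 0 and a median of 0.02. Cdk1 stood at 32.9 and 33.8 CPM in C57BL/6 and at 20.2 and 58.2 CPM in Hivep3-/-, and Ccnb2 at 30.7, 36.6, 21.2 and 46.1 CPM. The Hivep3-/- libraries lay on both sides of C57BL/6 in both genes, as they did for most of the list: replicate 1 was the lowest library for 43 of 53 genes and replicate 2 the highest for 40. The gene with the unadjusted p under 0.05 was the centrosomal kinase Nek2, at 7.32, 6.398, 1.73 and 3.89 CPM (-1.28, SE 0.50). Genotypes did not overlap in 6 of the 50 genes with enough UMIs, 2 lower and 4 higher in Hivep3-/-, against 18.5% and 21.6% of all genes. Without Hivep3-/- replicate 2 there were 12 genes called lower, with a median of -0.77. Without the upper limit of 4100 genes per cell (chosen after seeing the data) the median was 0.52 with none called, and high cells were 9.98% and 10.8% of stage 0-like cells in C57BL/6 and 11.51% and 19.95% in Hivep3-/-, so that the genotypes did not overlap.

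In iNKT1-like cells, which made up 50.4% to 72.5% of the named cells of each library, the sums of the list were level. None of 48 genes was called by edgeR or DESeq2, against 0.761% of 10912 genes, and the median was 0.04. Hmgb2, at 319.5, 423, 265 and 292 CPM, was the only gene with an unadjusted p under 0.05 (-0.41, SE 0.16, adjusted p 0.514, edgeR's quasi-likelihood test, Benjamini-Hochberg adjusted). Here Hivep3-/- replicate 1 was not low, being the lowest library for 7 genes and the highest for 15. Hivep3-/- lay wholly below C57BL/6 in 3 genes and above in 9 of 48, against 18.6% and 19.1% of all genes. Cells with at least 3 UMIs of the other mitosis genes were 2.58% and 2.53% of iNKT1-like cells in C57BL/6 and 3.52% and 3.38% in Hivep3-/-. Those with at least 20 UMIs of the list were 0.186% and 0.465% against 0.736% and 0.508%. Both shares were higher in Hivep3-/- without overlap, whereas at cuts of 5 and 10 UMIs the genotypes overlapped. In iNKT17-like cells 17 genes could be tested and none was called by edgeR or DESeq2 (0.053% of 7554 genes called, 5 members with an unadjusted p under 0.05), with a median of -0.32 and Hmgb2 at 314, 439, 170.3 and 249.4 CPM (-0.84, SE 0.22). There 8 of 18 genes lay wholly lower and 2 higher in Hivep3-/- (18% and 17.8% of all genes), and without C57BL/6 replicate 1, 2 were called lower.

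**Figure D5:**
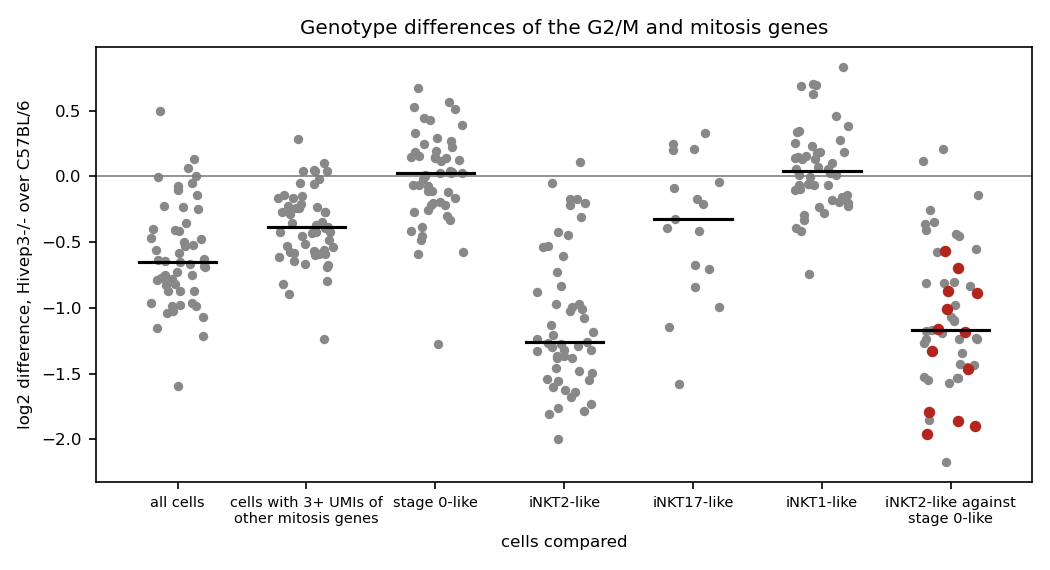
The log2 difference of Hivep3-/- over C57BL/6 is drawn for every tested gene of the list in all cells, in cells selected by other mitosis genes and in the 4 classes, and the last column gives the difference in iNKT2-like minus that in stage 0-like cells. Lines are medians, and red points are the 13 genes called in that last comparison. The iNKT2-like column lies lowest with a median of -1.26, and the stage 0-like and iNKT1-like columns centre on 0.02 and 0.04.

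Whether the genotype difference itself differed between classes was tested by an interaction term. The difference was lower in iNKT2-like than in stage 0-like cells for 13 of 51 genes and higher for none, against 2.71% lower and 1.6% higher of all genes (4.31% called in all), with 34 genes at an unadjusted p under 0.05 and a median of -1.17 (-0.03 over all genes). Aurka stood at 11.7, 15.5, 1.30 and 7.22 CPM in iNKT2-like cells and at 9.52, 10.97, 7.51 and 16.5 CPM in stage 0-like cells of the 4 libraries. Its difference between genotypes was lower by 1.90 in the former (interaction -1.90, SE 0.40, adjusted p 0.009, edgeR's quasi-likelihood test, Benjamini-Hochberg adjusted, as for the others here). The genotypes did not overlap in iNKT2-like cells and did in stage 0-like cells. Cdk1 (-1.47, SE 0.32, adjusted p 0.0114), Ccnb2 (-1.79, SE 0.45, adjusted p 0.0262), Hmgb2 (-1.16, SE 0.22, adjusted p 0.00454) and Cenpa (-1.19, SE 0.28, adjusted p 0.0195) showed the same. So did Ckap2l, a spindle protein, with 12.5, 13.7, 1.30 and 8.59 CPM in iNKT2-like and 7.69, 9.14, 7.51 and 16.7 CPM in stage 0-like cells (-1.96, adjusted p 0.0472). Cdca3, which helps degrade the inhibitor of mitotic entry Wee1, had 32.0, 46.1, 1.95 and 20.5 CPM against 23.1, 21.0, 10.8 and 38.1 CPM (-1.86, adjusted p 0.0211). The kinetochore gene Ndc80 had 12.6, 19.99, 4.33 and 11.9 CPM against 12.8, 11.9, 11.8 and 21.6 CPM (-1.33, adjusted p 0.0238). The other 5 were Smc4 (-1.01), Cks2 (-0.89), Cks1b (-0.88), Anp32e (-0.69) and Lbr (-0.57). The iNKT2-like sums join the Il13-led and the Il17rb-led cluster, whose mix differed between genotypes. The part of this mix in the interaction was not tested.

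The count of 13 moved with single libraries, to 2 without C57BL/6 replicate 1, 1 without C57BL/6 replicate 2, 22 without Hivep3-/- replicate 1 and 25 without Hivep3-/- replicate 2. DESeq2 called 6. The count was 2 of 44 with cell cycle genes kept in the clustering, where Ccnb2 turned to 0.77, and 35 with looser cell filters or without correction between libraries, and 31 without the filter on low counts. With iNKT1-like in place of iNKT2-like cells none of 51 genes was called by edgeR or DESeq2, against 3.74% of all genes (5 with an unadjusted p under 0.05, median 0.17). Without Hivep3-/- replicate 2, 13 were then higher in iNKT1-like cells, and without Hivep3-/- replicate 1, 2 were lower in iNKT1-like cells.

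Among cells that were selected by at least 3 UMIs of the other mitosis genes (619 and 228 cells in C57BL/6, 252 and 350 in Hivep3-/-), no member was called by edgeR or DESeq2, against 2.83% of 9786 genes. The unadjusted p was under 0.05 for 10 of 53, edgeR without the filter on low counts called 6, and the median was -0.38. Ccnb1 stood at 67.4, 111, 18.5 and 54.5 CPM (-1.23, SE 0.41, adjusted p 0.168, edgeR's quasi-likelihood test, Benjamini-Hochberg adjusted). Cenpa stood at 297, 438, 155 and 259.7 CPM (-0.82, SE 0.26), Cdc20 at 121, 155, 53.7 and 103 CPM (-0.80, SE 0.28) and Hmgb2 at 1929, 2645, 1173 and 1659 CPM (-0.69, SE 0.20). Genotypes did not overlap in these 4, and Hivep3-/- replicate 1 was the lowest library for 47 of the 53 genes. In 14 genes both Hivep3-/- libraries were below both C57BL/6 libraries and in 1 both were above, as in 22.1% and 24.8% of all genes. Without Hivep3-/- replicate 2, 19 were called lower with a median of -0.77, without Hivep3-/- replicate 1 none were and the median was -0.05, and without C57BL/6 replicate 1 there was 1. With at least 5 UMIs in place of 3, the median was -0.06.

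Genes of the same pathway outside the list were read from the same tests. Of 62 other mitosis genes none was called between genotypes over all cells (median -0.53, unadjusted p under 0.05 for 6) or in iNKT2-like cells (median -1.13, 22 of 61), 55 of 60 fell and 1 rose from iNKT2-like to iNKT1-like cells, and 56 fell from stage 0-like to iNKT1-like and 48 from iNKT2-like to iNKT17-like cells, against the 28.8%, 31.7% and 16.5% of all genes given above. In the interaction of iNKT2-like with stage 0-like cells 9 of 60 were lower (2.71% of all genes), among them Sgo1, which guards centromeric cohesion (-2.30), the condensin subunits Ncapg (-1.89) and Ncaph (-1.81), the mitotic kinase Plk1 (-1.86) and Pbk (-1.78). Pttg1 (securin), which had the most UMIs of them, stood at 82.8, 89.2, 87.0 and 85.0 CPM over all cells in the 4 libraries (log2 difference 0.00). Smc2 had 57.4, 44.4, 31.7 and 52.3 CPM (-0.28), and the phosphatase Cdc25b 35.4, 32.6, 47.9 and 48.3 CPM (0.50, adjusted p 0.200 from edgeR's quasi-likelihood test, Benjamini-Hochberg adjusted), higher in both Hivep3-/- libraries.

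Of 36 regulators of the cell cycle, none was called between genotypes over all cells (median -0.14, unadjusted p under 0.05 for 3) or in iNKT2-like cells (median -0.36, 11 of 35). The activator Foxm1 differed by -1.41 in iNKT2-like cells, Mybl2 (B-Myb) by -1.28, E2f1 by -0.83, and the repressors E2f7 and E2f8 by -1.96 and -1.81. From iNKT2-like to iNKT1-like cells 18 of 34 fell and 4 rose (28.8% and 29.8% of all genes), with Mybl2 (-2.42), E2f8 (-2.38), E2f1 (-1.44) and Foxm1 (-1.40) among the falls. From stage 0-like to iNKT2-like cells 3 of 34 rose (Rbl2 0.97, Cdkn1b 0.38 and Ccnd3 0.28) and 8 fell, against 19.4% and 17.1% of all genes, among them Tfdp2 (-1.22) and Wee1 (-1.13), the kinase that holds Cdk1 inactive. In the interaction 7 of 34 were lower, against 2.71% of all genes: Mybl2 (-2.13, adjusted p 0.0374 from edgeR's quasi-likelihood test, Benjamini-Hochberg adjusted), E2f2 (-1.78), E2f1 (-1.48), the CDK inhibitor Cdkn2c (-1.38), Ccne1 (-1.03), Cdk6 (-0.91) and Tfdp1 (-0.55). Of 45 S phase genes none was called between genotypes over all cells (median -0.33, unadjusted p under 0.05 for 2). In the interaction of iNKT2-like with stage 0-like cells 24 of them were lower, against 2.71% of all genes. This is a larger part than in the G2/M and mitosis list. From iNKT2-like to iNKT1-like cells 39 of the S phase genes fell, against 28.8% of all genes. Markers of other cells were low, and their part in the results was not tested. Over all cells the markers of double positive thymocytes (8 genes) summed to 0.197 to 0.357 per 10000 UMIs, and those of B cells (6) to 0.759 to 1.36. Those of myeloid cells (7) summed to 1.65 to 2.01 and of erythroid cells (4) to at most 0.000784. Rag1 and Cd79a were each detected in at most 0.230% of the cells of any class.

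The upper limit of 4100 genes per cell removed many dividing cells, unequally between libraries. It left out 78 and 207 cells of the C57BL/6 libraries and 252 and 179 of the Hivep3-/- libraries, with 63.9, 94.3, 63.2 and 105 UMIs of the 53 genes per 10000. These cells held 9.20%, 40.5%, 54.2% and 37.7% of all high cells of their libraries. With them the share of high cells was 7.18%, 8.65%, 4.53% and 7.89%, so that Hivep3-/- replicate 1 was still lowest and Hivep3-/- replicate 2 lay between the C57BL/6 libraries. The summed level became 17.5, 19.9, 14.9 and 19.0 per 10000 UMIs over all cells, 25.02, 40.5, 16.9 and 24.0 in iNKT2-like cells and 24.99, 21.97, 25.4 and 35.1 in stage 0-like cells. With no such limit, which was tried after the data were seen, the median genotype difference of the list was -0.23 over all cells, -0.53 in iNKT2-like cells and 0.52 in stage 0-like cells, and no member was called in these 3 comparisons by edgeR.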

How the data were processed

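UMI counts per gene and cell were deposited by the authors, who per the labels used Cell Ranger 3.1.0 and mm10 (Seurat 3.1.4 is named too). Counts came from 5′ libraries of 4 mice, 2 per genotype, at 31381738 to 48291764 UMIs. Cells with 500 to under 4100 genes, at least 1000 UMIs and under 6% mitochondrial UMIs were kept. Scrublet called 0 to 5 doublets per library and so did not work, and none were removed. Cells were clustered with Seurat 5.3.0 (2000 variable genes, 30 components, 20 neighbours, resolution 0.8) without cell cycle genes, and named from fixed markers. UMIs were summed per library and class and tested with edgeR 4.0.16 (quasi-likelihood, TMM, Benjamini-Hochberg over all genes tested, threshold 0.05) in R 4.3.3. CPM were TMM-scaled within each class. DESeq2 1.42.0, other filters, a replicate block and leaving out each library were alternatives. The tests were tested on simulated data. P-values of the genotype comparisons measure the spread between 2 mice per genotype. Those of the class contrasts and interactions measure the spread of class sums left after the library block. Intervals cover counting error only.

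The named genes were all 53 members by count and range, those called (at most the 8 largest in each direction) and a fixed set of cell cycle genes, with other mitosis genes, regulators, S phase genes and markers of other cells as further lists. The members were given as a list of symbols, and this list and the others were drawn up with earlier results of these data known. Cells of a library are not replicates.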

Additional observations from a re-analysis of the deposited data

Results flagged for a closer look

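The genotype difference was lower in iNKT2-like than in stage 0-like cells for 13 of the 51 genes tested, by the interaction term of edgeR's quasi-likelihood test, Benjamini-Hochberg adjusted. Of all 10601 genes tested 2.71% were lower and 1.6% higher in that term. The pattern was not particular to the list, as a larger part of the S phase genes was lower in it. DESeq2 called fewer members. The 8 largest of the 13 were Ckap2l (-1.96), Aurka (-1.90), Cdca3 (-1.86), Ccnb2 (-1.79), Cdk1 (-1.47), Ndc80 (-1.33), Cenpa (-1.19) and Hmgb2 (-1.16) on the log2 scale. Without C57BL/6 replicate 1 the count was 2 and without C57BL/6 replicate 2 it was 1. With cell cycle genes kept in the clustering it was 2 and Ccnb2 turned to 0.77, and with looser cell filters or without correction between libraries it was 35. The iNKT2-like sums join the Il13-led and the Il17rb-led cluster, whose mix differed between genotypes, and the part of this mix was not tested.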

How the results depend on the processing

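Of 1935 values of single genes under alternatives, 1738 kept their direction and side of the threshold, 112 lost and 63 gained the call, and 22 reversed. Of these 20 reversed with cell cycle genes kept in the clustering: from stage 0-like to iNKT2-like cells Cdk1 1.23, Cenpe 1.75, Cenpf 3.1, Kif11 1.49 and Tpx2 2.34, from iNKT2-like to iNKT1-like cells Nusap1 0.62, from stage 0-like to iNKT1-like cells Aurkb 2.47, Birc5 2.19, Ccna2 2.55, Ccnb1 1.30, Ccnb2 3.64, Cenpe 0.10, Cenpf 1.69, Hmgb2 0.94, Kif11 0.65, Mki67 2.04, Nusap1 1.77, Tpx2 0.41 and Ube2c 2.09, and in the interaction Ccnb2 0.77. With the Cd24a-led cluster alone, Tpx2 (1.21, stage 0-like to iNKT2-like) and Ccnb2 (0.20, stage 0-like to iNKT1-like) reversed. The cause was not tested.

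Counts of members called moved as follows. DESeq2 gave 3 over all cells, 4 in iNKT2-like cells and 6 in the iNKT2-like interaction. Without the filter on low counts they were 20, 6 in mitosis-selected cells, 40 in iNKT2-like and 2 in iNKT17-like cells, and 31 and 3 in the 2 interactions. With the replicate block they were 2 over all cells, 6 in mitosis-selected, 27 in iNKT2-like and 1 in iNKT17-like cells. The labels do not pair the replicates. Over all genes tested in sums of all kept cells, same-numbered libraries did not deviate together (r = 0.0009). That value does not cover the list within a class. In iNKT2-like cells C57BL/6 replicate 2 was the highest library for 47 of the 53 genes, and Hivep3-/- replicate 1 the lowest for 51. For most of the list replicate 1 thus lay below replicate 2 in both genotypes there. The Il17rb-led cluster gave 1. From stage 0-like to iNKT2-like cells the count was 5 with looser cell filters, 28 with cell cycle genes kept, 4 without correction, 3 without the upper limit and 20 with the Cd24a-led cluster. From stage 0-like to iNKT1-like cells it was 26 with cell cycle genes kept and 20 with the Cd24a-led cluster. The iNKT2-like interaction gave 35 with looser filters or without correction and 2 with cell cycle genes kept, and the iNKT1-like one 2 with looser filters and 1 without the upper limit.

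The genotype difference in high cells was -0.644 points over all cells at 20 UMIs, 5.36 in stage 0-like cells without the upper limit, -17.6 at 5, -4.74 at 20 UMIs and -4.02 with cell cycle genes kept in iNKT2-like cells, and at 5 UMIs it was -2.98 in iNKT17-like cells, with -0.654 in iNKT1-like ones. The log2 difference of the summed level was 0.37 in stage 0-like cells without the upper limit, -0.34 in iNKT2-like cells with cell cycle genes kept, -0.48 without the 5 highest members, -0.50 with looser filters or no upper limit and -0.16 with cell cycle genes kept in iNKT17-like cells, and 0.10 without the 5 highest members in iNKT1-like cells.

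Leaving out 1 library gave 0 to 16 members called over all cells, 0 to 19 in mitosis-selected, 0 to 12 in stage 0-like, 0 to 40 in iNKT2-like and 0 to 2 in iNKT17-like cells, 3 to 8, 43 to 47, 28 to 46 and 42 to 49 in the 4 class contrasts, and 1 to 25 and 0 to 13 in the interactions. The summed level differed by -0.42 to -0.09 over all cells, -0.13 to 0.30 in stage 0-like, -1.29 to -0.65 in iNKT2-like and -0.40 to -0.32 in iNKT17-like cells.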
